A study of Homo sapiens with 11 samples.

Results

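In the uveal melanoma line 92-1, 35950 of the 103379 SOX10 peaks called in vehicle-treated cells (34.8%) also overlapped an MITF peak and a TFAP2A peak. These triple sites were chosen by the DMSO peak calls of the 3 factors: each is a unique row of the SOX10 list that shares at least 1 bp with a peak of both others. Their presence in those 3 lists is therefore not a result. Chromatin immunoprecipitation followed by sequencing (ChIP-seq) had been done on 92-1 cells kept for 4 h in the solvent DMSO or in FHT-1015, an inhibitor of SMARCA4 and SMARCA2. Both conditions were profiled with 5 antibodies (SOX10, MITF, AP-2, SMARCA4 and acetylated lysine 27 of histone H3, H3K27ac), with 1 library each, beside 1 DMSO input library. The antibody labelled AP-2 is named in the protocol as one against TFAP2A, and that name is used here. All libraries come from 1 cell line at 1 time, so what is called order below is which peaks were missing together and not a sequence in time. With 1 library per group there is no replicate check and no test between conditions. Every difference compares a pair of libraries, and intervals (95%, Wilson for shares and Newcombe for differences) cover counting error only.

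SOX10, MITF and TFAP2A are transcription factors of the neural crest and melanocyte lineage. SOX10 binds DNA through a high-mobility-group domain and acts upstream of the MITF gene, MITF is a basic helix-loop-helix leucine zipper factor that binds E-boxes at pigment genes, and TFAP2A binds GC-rich palindromes at many of the same enhancers. SMARCA4 and SMARCA2 are the alternative ATPases of the BAF remodelling complex, which moves nucleosomes and keeps regulatory DNA accessible, and H3K27ac is a mark of promoters and enhancers in use.

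The lists held 33268 to 142667 peaks, each with a −log10 p of 2 or more. The number of SOX10 peaks was 103379 in DMSO and 33268 in FHT-1015, whereas MITF had 89519 and 92716. Depth relative to the input, recovered from the lists, differed between conditions by a factor (FHT-1015 over DMSO) of 0.854 for MITF to 1.145 for SOX10, so SOX10 had the larger depth in FHT-1015. The SOX10 list from FHT-1015 had been called on reads multiplied by 0.890, whereas each other narrow list fitted whole reads with no multiplier. The file names of the SOX10 libraries carry other codes than those of the remaining antibodies and differ from each other, and what this marks cannot be told apart from the treatment. All 7 melanocytic marker genes checked had H3K27ac peaks in DMSO within 10 kb, against 7 of 15 marker genes of other cell types.

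To show the DNA under such sites, the 250 bases before the start site are given for 6 of the 16 pigment cell genes whose whole promoter window lay inside a triple site. They were chosen after their values were seen, as genes of melanin enzymes, melanosomal proteins and a channel. CATGTG or CACGTG was in the windows of 11 of the 16, and MITF, PAX3, TFAP2A and RAB27A are among those with neither. The first 4 belong to sites at which all 3 factors still had a peak in FHT-1015, and the last 2 to sites at which only MITF did. Sequences are from RefSeq on GRCh38.p14, written 5′ to 3′ on the strand of the gene. Capitals mark, on either strand, the E-box letters CATGTG or CACGTG, the SOX letters ACAAAG or ACAATG, and the AP-2 letters GCCNNNGGC.
TRPM1, chr15:31101726-31101975 (minus strand): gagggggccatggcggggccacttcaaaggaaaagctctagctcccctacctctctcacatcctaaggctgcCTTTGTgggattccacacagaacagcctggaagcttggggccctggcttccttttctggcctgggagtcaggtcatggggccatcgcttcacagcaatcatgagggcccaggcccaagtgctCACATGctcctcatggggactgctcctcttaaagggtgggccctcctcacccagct
GPNMB, chr7:23246525-23246774 (plus strand): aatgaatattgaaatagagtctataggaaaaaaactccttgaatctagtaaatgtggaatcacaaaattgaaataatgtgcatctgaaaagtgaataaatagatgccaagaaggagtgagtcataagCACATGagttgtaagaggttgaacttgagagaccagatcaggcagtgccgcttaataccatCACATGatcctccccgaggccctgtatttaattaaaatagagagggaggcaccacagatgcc
TYR, chr11:89177625-89177874 (plus strand): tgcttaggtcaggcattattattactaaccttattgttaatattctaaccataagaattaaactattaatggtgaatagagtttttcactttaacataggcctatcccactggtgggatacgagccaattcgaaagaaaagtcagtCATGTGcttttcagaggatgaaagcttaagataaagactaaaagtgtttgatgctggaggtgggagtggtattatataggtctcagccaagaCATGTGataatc
TYRP1, chr9:12693135-12693384 (plus strand): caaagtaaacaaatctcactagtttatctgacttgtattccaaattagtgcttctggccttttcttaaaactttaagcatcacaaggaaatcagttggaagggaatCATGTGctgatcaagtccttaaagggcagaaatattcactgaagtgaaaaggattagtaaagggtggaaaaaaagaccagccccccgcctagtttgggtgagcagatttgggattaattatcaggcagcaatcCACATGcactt
MLANA, chr9:5890639-5890888 (plus strand): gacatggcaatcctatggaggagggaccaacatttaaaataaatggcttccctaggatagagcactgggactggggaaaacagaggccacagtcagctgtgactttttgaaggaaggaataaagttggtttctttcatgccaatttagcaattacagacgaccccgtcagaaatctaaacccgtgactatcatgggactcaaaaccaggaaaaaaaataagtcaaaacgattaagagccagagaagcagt
DCT, chr13:94479683-94479932 (minus strand): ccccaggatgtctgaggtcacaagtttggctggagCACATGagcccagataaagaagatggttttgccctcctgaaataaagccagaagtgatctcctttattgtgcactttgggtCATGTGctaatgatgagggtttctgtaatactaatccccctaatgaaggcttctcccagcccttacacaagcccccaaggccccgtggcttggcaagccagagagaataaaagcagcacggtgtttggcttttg
The promoters of GPNMB (a melanosomal glycoprotein), TYR (tyrosinase, the first enzyme of melanin synthesis), TYRP1 (a melanosomal enzyme) and DCT (dopachrome tautomerase) each held 2 copies of CATGTG or its reverse complement in this stretch. TRPM1, a melanocyte cation channel, had 1 copy of CATGTG and 1 of ACAAAG, and MLANA, a melanosomal antigen, had none of the letters searched.

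In DMSO the triple sites were the strong end of the SOX10 list. Their median width was 526 bp (quartiles 352 and 762) and their median SOX10 −log10 p was 16.6, against 4.84 for SOX10 peaks with neither partner, 7.14 with MITF only and 7.01 with TFAP2A only. They took in 84.6% of the strongest decile of SOX10 peaks, 87.6% of the strongest decile of MITF peaks and 76.2% of the strongest decile of TFAP2A peaks. The summits lay close together: the median distance was 52 bp between SOX10 and MITF, 50 bp between SOX10 and TFAP2A and 68 bp between MITF and TFAP2A. An SMARCA4 peak was present at 83.8% (83.4 to 84.2) and an H3K27ac peak at 75.3% (74.8 to 75.7). By position, 23.03% lay within 1 kb of a boundary (start or end) of a protein-coding gene, and the median distance to the nearest boundary was 20898 bp. At the edge of the rule, the 347 sites sharing at most 50 bp with an MITF peak had a median SOX10 −log10 p of 5.70, and the 264 SOX10 and TFAP2A sites that missed one by under 50 bp had 6.57. For TFAP2A the same edge held 171 sites with 5.11 and 117 with 5.56.

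In FHT-1015, SOX10 was the factor most often missing from the triple sites and TFAP2A the least. A SOX10 peak remained over 31.8% of them (31.3 to 32.3), an MITF peak over 53.1% (52.6 to 53.6) and a TFAP2A peak over 66.6% (66.1 to 67.1). Over each whole DMSO list, the share of peaks overlapped by one for that antibody in FHT-1015 was 18.3% for SOX10, 36.2% for MITF and 54.9% for TFAP2A. Counted by each factor's own DMSO peak, those in triple sites kept a peak in 31.8%, 52.6% and 66.5%, and those outside in 11.1%, 24.7% and 50.9%. A peak missing from a list is one that was not called at that depth, and residual binding below the call is not seen. The order SOX10 below MITF below TFAP2A was that of the whole lists and was found on 23 of 23 chromosomes. The chromosomes share the same libraries and are not replicates. SOX10 ranged from 23.005% on chromosome 21 to 39.1% on chromosome 19. The order was also found among the 1070 sites whose 3 DMSO peaks fell in the same decile of their own values. There SOX10 was present in 48.3% (45.3 to 51.3), MITF in 72.6% (69.9 to 75.2) and TFAP2A in 81.2% (78.8 to 83.4). Among the 517 of these in the strongest decile the values were 66.3%, 95.9% and 96.5%, with overlapping intervals for MITF and TFAP2A. Equal deciles are not equal strengths. Over all triple sites the strongest decile began at a −log10 p of 67.1 for SOX10, 98.7 for MITF and 145.6 for TFAP2A.

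All 3 factors remained at 9005 triple sites (25.05%) and none at 8016 (22.3%). The most frequent mixed outcome was TFAP2A left alone, at 6978 sites (19.4%), followed by MITF and TFAP2A without SOX10 at 6289 (17.5%). MITF was left alone at 3229 (8.98%) and SOX10 with TFAP2A at 1665 (4.63%). SOX10 with MITF was found at 556 sites (1.55%) and SOX10 alone at 212 (0.590%). Where exactly 1 factor was missing (8510 sites), it was SOX10 in 73.9%, MITF in 19.6% and TFAP2A in 6.53%. Of the 11395 sites where SOX10 and MITF differed in presence, SOX10 was the absent one in 83.5% (82.8 to 84.2). Of the 14035 where SOX10 and TFAP2A differed, SOX10 was absent in 94.5% (94.1 to 94.9), and of the 12428 where MITF and TFAP2A differed, MITF was absent in 69.5% (68.7 to 70.3).

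**Figure D1:**
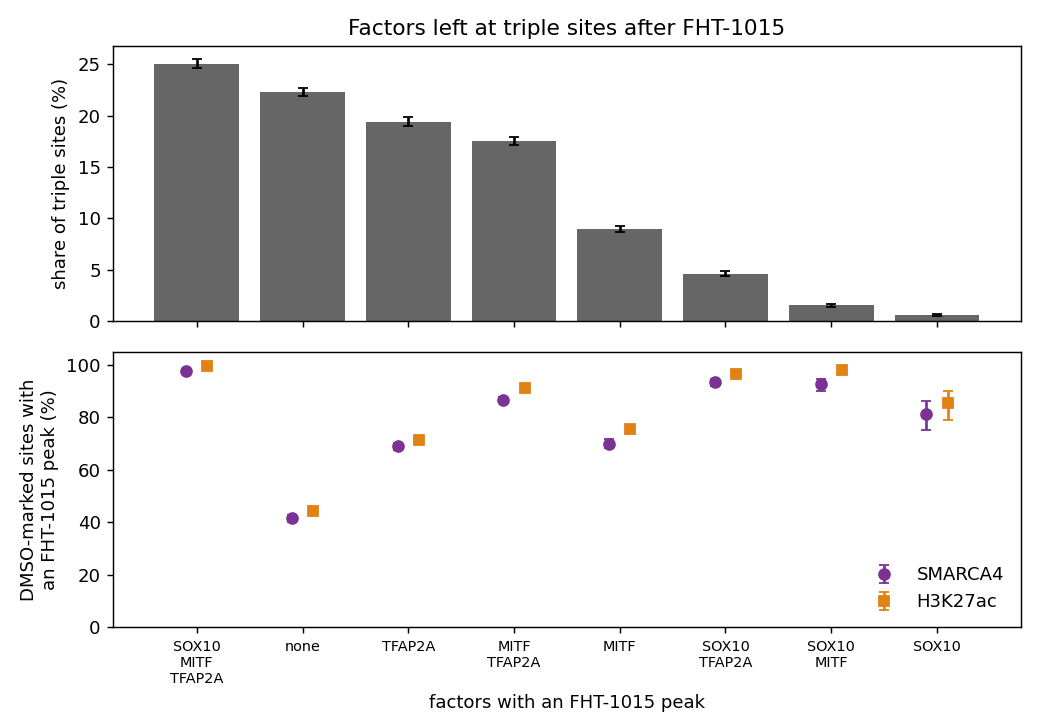
Upper panel: share of the 35950 triple sites (y axis, %) with each combination of factors under an FHT-1015 peak (x axis). Lower panel: share of the sites with a DMSO SMARCA4 (circles) or H3K27ac (squares) peak that also had one in FHT-1015 (%). Bars or error bars give 95% Wilson intervals. The share with SMARCA4 runs from 41.5% where no factor was left to 97.6% where all 3 were, and that with H3K27ac from 44.2% to 99.5%.

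Each factor remained more often where another did. MITF had a peak at 83.6% of the sites that kept SOX10 and at 38.8% of those that did not. The difference of 44.8 percentage points (43.8 to 45.7) was 40.8 when sites were matched on the strength of the DMSO MITF peak. Matching on the DMSO SOX10 peak was not done here. For TFAP2A the shares were 93.3% and 54.1%. MITF and TFAP2A were tied too: TFAP2A remained at 80.2% of sites with MITF and 51.2% without. Any overlap with a site counted as presence, and sites also differed in width and position. The median width was 403 bp where no factor remained and 816 bp where every factor did. Of these sites, 3.19% and 47.6% lay at gene boundaries. The differences were not matched on width or position, and the part of either in them was not tested.

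SMARCA4 and H3K27ac were kept more often where more factors were left. Of the sites with an SMARCA4 peak in DMSO, 75.7% (75.2 to 76.2) had one in FHT-1015, against 52.0% of the whole SMARCA4 list. For H3K27ac it was 81.9% (81.4 to 82.3), against 59.3% of the whole list. Where no factor remained, SMARCA4 was kept at 41.5% (40.3 to 42.7) and H3K27ac at 44.2% (42.7 to 45.7) of the sites that had it. With TFAP2A alone left the shares were 68.9% and 71.3%, and with MITF alone left 70.0% and 75.4%. The 212 sites with SOX10 alone had 81.3% (75.1 to 86.2) and 85.4% (78.9 to 90.2). Where MITF and TFAP2A remained without SOX10 they were 86.8% (85.8 to 87.7) and 91.2% (90.4 to 92.0), and with all 3 factors 97.6% and 99.5%. SOX10 with TFAP2A gave 93.5% and 96.6%, and SOX10 with MITF 92.8% and 98.2%. Sites where all 3 remained had stronger SOX10 peaks in DMSO (median −log10 p 26.8) than those where none did (12.4), and 47.6% against 3.19% of them lay at gene boundaries. Their median width was 816 bp against 403 bp. The SMARCA4 and H3K27ac shares by outcome were not matched on strength, position or width. An SMARCA4 peak also appeared at 1689 of the 5814 triple sites that had none in DMSO (29.1%), and an H3K27ac peak at 787 of 8887 (8.86%). Such peaks appeared at other SOX10 sites too. The SMARCA4 shares were 15.6% of sites with MITF only, 17.5% with TFAP2A only and 7.66% with neither. For H3K27ac they were 5.98%, 6.15% and 3.34%. These classes were not matched on width or strength.

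The acetylation of a site in DMSO separated the outcomes more than SMARCA4 did. Among distal sites (over 1 kb from a gene boundary), SOX10 remained at 30.2% (29.5 to 30.9) of those with both SMARCA4 and H3K27ac in DMSO. It remained at 7.81% (7.12 to 8.56) of those with SMARCA4 only, 19.6% (17.6 to 21.8) of those with H3K27ac only and 6.87% (5.999 to 7.86) of those with neither. The distal SMARCA4-only sites had stronger DMSO SOX10 peaks than the H3K27ac-only sites (median −log10 p 12.2 against 9.03). MITF showed the same ranking of H3K27ac-only (47.3%) over SMARCA4-only sites (25.1%). For TFAP2A the gap was smaller, 54.4% against 48.4%. Retention also rose with the width of the H3K27ac peak over a distal site: SOX10 was present in FHT-1015 at 7.48% with no H3K27ac peak, 16.5% under peaks shorter than 1 kb and 55.4% (52.9 to 57.8) under peaks of 5 kb or more. The median DMSO SOX10 −log10 p rose over the same sites from 9.45 to 38.5, and the parts of width and strength were not separated.

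**Figure D2:**
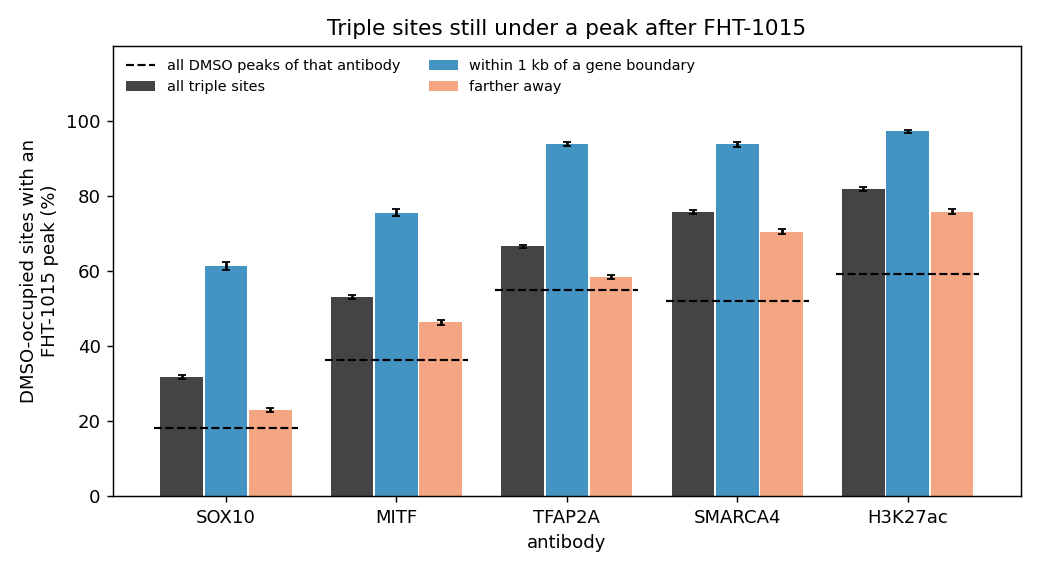
Share of triple sites with a DMSO peak of an antibody (x axis) that had an FHT-1015 peak of it (y axis, %), for all triple sites, those within 1 kb of a gene boundary and those farther away. Error bars are 95% Wilson intervals and dashed lines give the same share over the whole DMSO list of that antibody. SOX10 was present at 61.5% of boundary sites and 22.9% of the others.

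Distance to genes divided the triple sites. Within 1 kb of a boundary SOX10 remained at 61.5% (60.4 to 62.5) of 8275 sites, and at 22.9% (22.4 to 23.4) of the 27659 distal sites, a difference of −38.5 percentage points (−39.7 to −37.4). MITF remained at 75.6% and 46.3% (difference −29.3, −30.4 to −28.2) and TFAP2A at 93.8% and 58.4% (−35.4, −36.2 to −34.6). An SMARCA4 peak was present in FHT-1015 at 85.8% and 62.8% of all such sites (−22.99, −23.9 to −22.04), and an H3K27ac peak at 91.2% and 55.6% (−35.6, −36.4 to −34.7). Matching sites on the strength of the DMSO SOX10 peak gave −42.6 for SOX10, −31.5 for MITF and −36.6 for TFAP2A. H3K27ac peaks themselves were stronger at boundaries, and among sites with a DMSO H3K27ac peak the H3K27ac difference was −21.4 (−22.1 to −20.7), or −10.1 when matched on the DMSO H3K27ac value. For SOX10 the step lay at the boundary: it was present at 24.1% of sites 1 to 10 kb away, 21.1% at 10 to 100 kb and 25.1% beyond 100 kb. The shares of the others went on falling over these 3 ranges, from 68.3% to 56.7% and 54.03% for TFAP2A and from 51.5% to 45.5% and 43.95% for MITF, while the share with no factor left went from 20.7% to 31.5%. All 3 factors remained at 51.7% of boundary sites and 17.1% of distal ones, and none at 3.09% and 28.05%. Start sites carried the higher value. SOX10 was present at 63.2% of sites within 1 kb of a start site and at 48.0% (45.7 to 50.3) of the 1793 boundary sites with no start site that near.

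**Figure D3:**
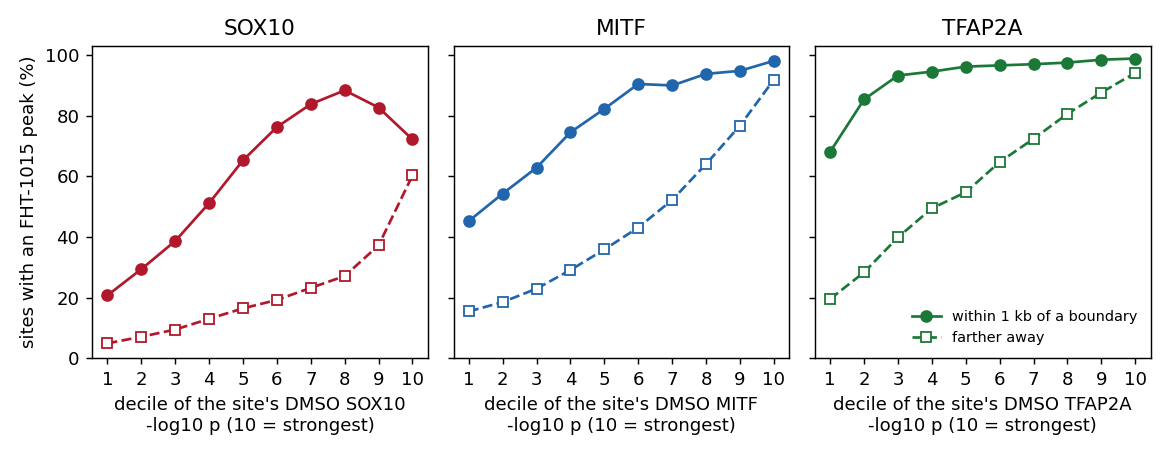
Share of triple sites with an FHT-1015 peak (y axis, %) in each decile of the DMSO −log10 p of the same factor (x axis), for sites within 1 kb of a gene boundary (filled) and farther away (open). In the strongest decile, distal sites reached 60.3% for SOX10, 91.9% for MITF and 94.1% for TFAP2A.

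Stronger sites kept their factors more often. In each of the 10 deciles of the factor's own DMSO value, the share was lowest for SOX10 and highest for TFAP2A. SOX10 remained at 7.93% of sites in its weakest decile and at 60.8% in its strongest, MITF at 23.9% and 92.9% in the deciles of its own values, and TFAP2A at 26.5% and 95.3%. At boundaries SOX10 did not rise throughout, being present at 88.4% of 910 sites in the eighth decile and at 72.2% of 158 in the strongest.

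Sites that kept a peak still differed in the number of reads under it. The reads at each summit, divided by the depth of the library, were compared at sites with a peak in both lists, which leaves out sites that fell below the call. In each list the summit is that of the strongest peak overlapping the site. The summits of DMSO and FHT-1015 can thus lie apart, and a peak can serve several sites. An FHT-1015 H3K27ac summit lay within 200 bp of the SOX10 summit at 33.3% of all triple sites. For SOX10 the median FHT-1015 to DMSO ratio was 0.52 (quartiles 0.39 and 0.66), and 96.6% of 11427 sites were lower. It was 0.55 at boundaries and 0.48 at distal sites. For MITF it was 1.04 at boundaries and 0.62 at distal sites, and for TFAP2A 1.09 and 0.54. SMARCA4 had 1.40 (quartiles 1.13 and 1.74) at boundaries and 0.93 (0.69 and 1.25) at distal sites, and H3K27ac 1.37 and 0.85. SOX10 was thus lower at both kinds of site, whereas the other antibodies had medians above 1 at boundaries and below 1 elsewhere. Peaks counted as kept had lower median ratios where a partner was missing, by amounts that depended on the partner. At sites without SOX10 that kept MITF and TFAP2A, the median ratio was 0.66 for MITF and 0.63 for TFAP2A, against 1.00 and 1.04 where all 3 remained. Where it was the only factor left, MITF had 0.37 and TFAP2A 0.38. With only MITF missing the gap was smaller: 0.50 against 0.53 for SOX10 and 0.90 against 1.04 for TFAP2A. The share of sites at boundaries also differed between these outcomes. It was 47.6% with all 3 left, 27.7% with MITF and TFAP2A, 14.4% with TFAP2A alone and 5.79% with MITF alone. The ratios were not matched on position. At sites with no factor left but with H3K27ac peaks in both lists, the H3K27ac ratio was 0.56 and 85.9% were lower, and the SMARCA4 ratio was 0.82. Where all 3 remained these were 1.36 and 1.26.

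**Figure D4:**
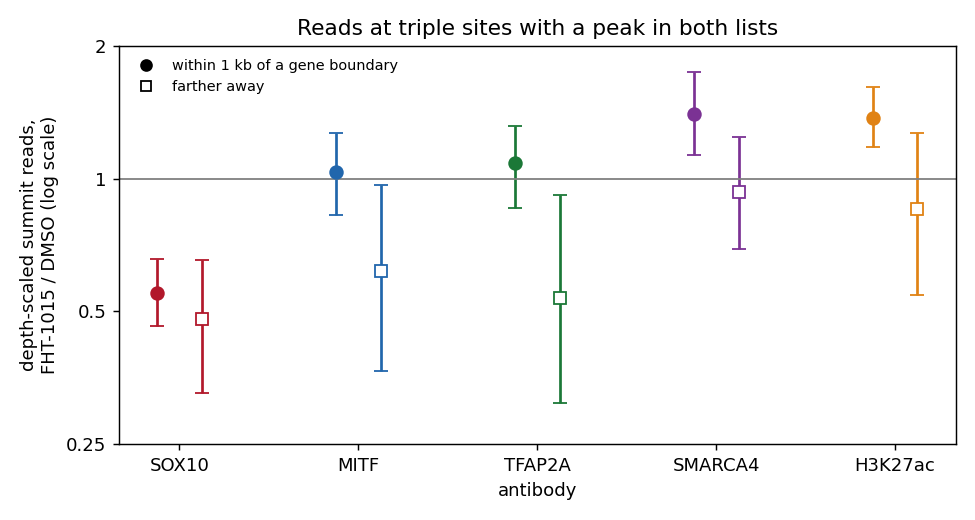
Median ratio of depth-scaled reads, FHT-1015 over DMSO (y axis, log scale), at triple sites with a peak in both lists, by antibody (x axis). Reads are those at the summit of the strongest overlapping peak in each list, and sites where that peak has a −log10 p above 290 are left out. Filled circles are sites within 1 kb of a gene boundary, open squares sites farther away, and bars span the quartiles over sites. The SOX10 medians are 0.55 and 0.48, both below the line at 1.

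The sites with the best ranks in all 3 DMSO lists kept all 3 factors. The first lay inside CD44, which encodes a hyaluronan receptor, 26944 bp from a gene boundary (chr11:35166115-35167289, hg38). It had 282 SOX10 reads at the summit in DMSO and 143 in FHT-1015, 157 and 87 SMARCA4 reads, and 206 and 169 H3K27ac reads. The next was 84054 bp from MYO10, a myosin of filopodia, with 227 and 172 SOX10 reads and 151 and 137 SMARCA4 reads. In TIMP2, a metalloproteinase inhibitor, SOX10 reads were 239 and 75 while SMARCA4 reads were 118 and 126. The sites near LPGAT1, an acyltransferase, and ILRUN, a regulator of inflammation, had 278 and 215 and 248 and 192 SOX10 reads. SOX10 was the lower of each pair at all 5 sites, although its library was the deeper one in FHT-1015. Read counts of single sites, here and below, are not divided by depth.

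The strongest sites that lost only SOX10 showed how far the remaining factors could fall. The site nearest ZFPM1, a GATA cofactor, had 179 SOX10 reads in DMSO and no peak in FHT-1015, MITF reads of 200 and 37, TFAP2A reads of 226 and 36, and H3K27ac reads of 236 and 87. At the site nearest GSTA3, a glutathione transferase, MITF reads were 221 and 17. Near LYRM9 the SMARCA4 reads were 71 and 37 and the H3K27ac reads 244 and 77. All 3 of these sites were thus weaker for every antibody printed. Where SOX10 and MITF were both missing, the strongest sites were in PINX1 (a telomerase inhibitor), CCDC33 and SMAD6 (an inhibitor of BMP signalling), and TFAP2A reads fell from 226 to 35 in PINX1 and from 157 to 13 in CCDC33.

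Where all 3 factors were missing, SMARCA4 could remain. The site nearest NSG1, a neuronal vesicle protein, had 122 SOX10, 171 MITF and 192 TFAP2A reads in DMSO and no such peak in FHT-1015. Its SMARCA4 reads were 44 and 16, and its H3K27ac peak of 127 reads was gone. The site nearest NANOS1, an RNA-binding protein, had SMARCA4 reads of 68 and 54 and H3K27ac reads of 176 and 26. The site in INSC, a spindle orientation adaptor, had 167 SOX10 reads in DMSO, 52 SMARCA4 reads that had no counterpart in FHT-1015, and no H3K27ac peak in either. The reverse outcome began lower in the ranking: the best ranked site that kept SOX10 without MITF was nearest TOX, a nuclear high-mobility-group protein, with 170 and 56 SOX10 reads and an MITF peak of 85 reads in DMSO only. ABR and GSDMC, a gasdermin, followed with 71 and 19 and 167 and 38 SOX10 reads.

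Of 30 pigment cell genes listed, 28 had triple sites within 10 kb, 136 in all, and KIT and S100B had none. SOX10 remained at 67 (49.3%), MITF at 98 (72.1%), and TFAP2A at 98 (72.1%). An SMARCA4 peak was present in FHT-1015 at 112 (82.4%) and an H3K27ac peak at 114 (83.8%), of which 1 each had none in DMSO. Over all triple sites the 5 shares were 31.8%, 53.1%, 66.6%, 68.1% and 63.8%. In DMSO, SMARCA4 was present at 124 of the 136 pigment sites and H3K27ac at 123, against 83.8% and 75.3% of all triple sites. The pigment sites were not matched on these marks or on peak strength. All 3 factors remained at 53 of the 136 and none at 17, and 30 lay within 1 kb of a gene boundary (22.1%). Among genes for transcription factors, the MITF gene kept SOX10 at 12 of 15 sites and PAX3, a paired-box factor upstream of MITF, at 10 of 12. TFAP2A kept it at 3 of 4, the SOX10 gene at 2 of 5 and IRF4 at 0 of 1.

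Among genes of melanin enzymes the counts ran from all sites to none. TYRP1 kept SOX10 at 3 of 3 sites, TYR at 2 of 5 and DCT at 0 of 4. At the TYRP1 promoter site SOX10 had 54 summit reads in DMSO and 54 in FHT-1015, MITF 122 and 98, and TFAP2A 28 and 28. These are raw counts, and the depth factor (FHT-1015 over DMSO) was 1.145 for SOX10, 0.854 for MITF and 0.960 for TFAP2A. At TYR the SOX10 reads were 55 and 21, the MITF reads 147 and 62 and the TFAP2A reads 63 and 36. At DCT, SOX10 (66 reads in DMSO) and TFAP2A (67) had no peak in FHT-1015, MITF had 119 and 15 reads, SMARCA4 36 and 15, and H3K27ac 39 and 17. Both E-box copies in the DCT stretch printed above thus lay under an MITF peak that was still called but lower, while those of TYRP1 and TYR lay inside peaks of all 3 factors in FHT-1015. The DCT promoter site counts as distal here, since it lies 42599 bp from the nearest boundary of the RefSeq gene.

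At transport, channel and receptor genes the counts were small. For comparison, SOX10 remained at 49.3% of all pigment sites and 31.8% of all triple sites, and differences between genes were not tested. OCA2, a melanosomal transporter, kept SOX10 at 0 of 3 sites, SLC7A5, an amino acid transporter, at 1 of 7, RAB38 at 4 of 11 and MYO5A, the motor of melanosome transport, at 2 of 7. At TRPM1, SOX10 reads were 163 and 61, MITF reads 229 and 144, and TFAP2A reads 234 and 135. At GPNMB they were 166 and 130 for SOX10 and 213 and 244 for TFAP2A. The MLANA promoter site had 69 SOX10 reads and 14 TFAP2A reads in DMSO only, MITF reads of 173 and 32, and SMARCA4 reads of 18 and 21. Among receptors, EDNRB (endothelin receptor B) kept SOX10 at 4 of 7, MC1R (melanocortin receptor) at 4 of 6, ERBB3 at 3 of 4 and MET at 3 of 10. The single IRF4 site kept MITF and SMARCA4 and no SOX10, TFAP2A or H3K27ac peak.

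**Figure D5:**
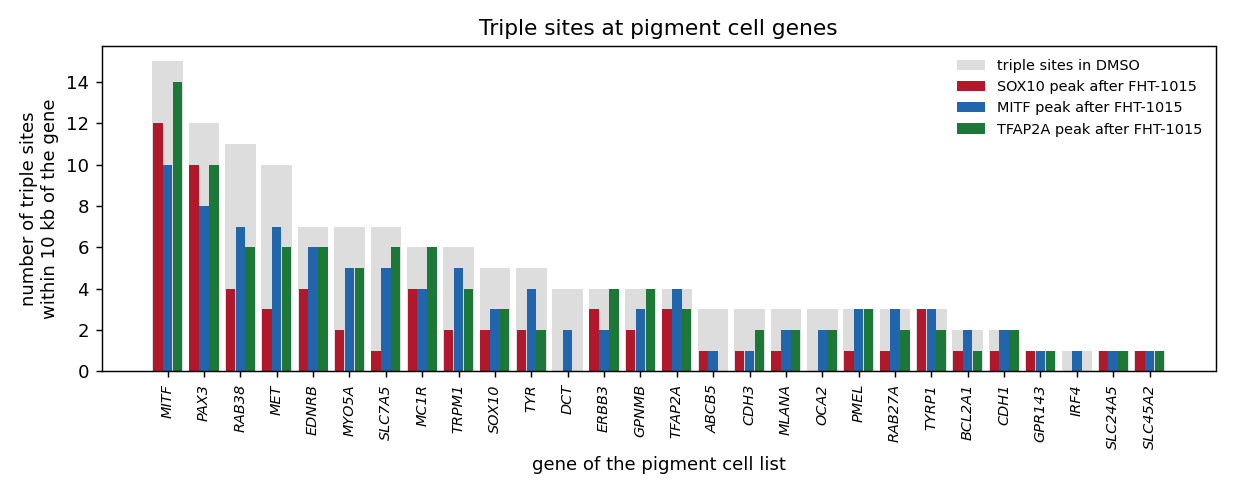
Number of triple sites within 10 kb of each pigment cell gene (grey bars, y axis) and the number of them with a SOX10, MITF or TFAP2A peak in FHT-1015 (coloured bars). DCT and OCA2 have no red bar, and TYRP1 has 3 of 3.

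By number of triple sites within 10 kb, the leading genes were long ones. DMD (dystrophin) had 35 triple sites, of which SOX10 remained at 12, MITF at 14 and TFAP2A at 21. PDE4D, a phosphodiesterase, had 33 with 10, 20 and 19, and FHIT had 27 with 6, 12 and 12. RAD51B and SOX6 had 26 sites each, with SOX10 at 10 and 13. CDKAL1, DLGAP1 and PRKG1 had 25 each, with SOX10 at 12, 6 and 10, and ARID1B (a BAF subunit) and BCAS3 had 24 each, with 9 and 8. Of the 251 genes with at least 10 triple sites, the median share with SOX10 was 29.4%, and 12 genes had no SOX10 left at any of them. Chosen after their values were seen, AUTS2 (0 of 20) and SYN3 (0 of 17) were the largest of these 12, and HMCN1 kept SOX10 at 14 of 17. At AUTS2 an H3K27ac peak was present at 11 sites in DMSO and at 4 in FHT-1015. Genes of the BAF complex had 45 triple sites at 12 of 16 genes, with SOX10 remaining at 21 (46.7%), MITF at 34 (75.6%) and TFAP2A at 39 (86.7%). An H3K27ac peak was present in FHT-1015 at 42 (93.3%), and 10 of the 45 lay at gene boundaries. The same shares over all triple sites were 31.8%, 53.1%, 66.6% and 63.8%. ARID1B alone held 24 of the 45 sites, with SOX10 at 9 and H3K27ac at 23 in FHT-1015. The sites of this list were not matched on peak strength or on their marks in DMSO. The uveal melanoma genes had 22 sites at 6 of 8, 4 of them at boundaries, with SOX10 at 6 (27.3%). GNAQ, a G-protein gene often mutated in such tumours, kept it at 0 of 6. The 4 of 5 housekeeping control genes with triple sites had 7, with SOX10 at 6 (85.7%). All 7 lay at gene boundaries, where SOX10 remained at 61.5% of all triple sites.

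Promoters inside triple sites held the E-box CACGTG more often than promoters at large. Of 35116 RefSeq promoters of 300 bases, 6120 lay wholly inside a triple site. CACGTG was in 16.05% of these and in 7.26% of all promoters. CATGTG was less frequent there (7.40% against 11.1%), as were ACAAAG (9.58% against 16.1%) and ACAATG (6.27% against 10.8%), and GCCNNNGGC more frequent (32.97% against 23.2%). The median GC content was 66% inside triple sites and 58.7% over all promoters, and its part in these shares was not tested. CACGTG was in 18.01% of the 5270 under sites that kept MITF and in 3.88% of the 850 under sites that did not, with a median GC content of 66.3% and 66.0%. For SOX10 kept or missing the shares with CACGTG were 16.5% and 14.2%. CATGTG was in 7.42% and 7.29% of the promoters with and without MITF, and ACAAAG in 9.39% and 10.3% of those with and without SOX10. GCCNNNGGC was in 33.3% of the promoters that kept TFAP2A and in 14.04% of the 114 that did not, whose median GC content was 52.7% against 66.3%. These counts describe letters on either strand and not bound sites, and neighbouring start sites of a gene share bases.

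Triple sites kept SOX10 more often than other SOX10 sites, and the gap was smaller among sites of like strength. SOX10 remained at 9.41% of sites with SOX10 alone, 13.97% of those with TFAP2A and 8.49% of those with MITF. The differences were 22.4 (21.8 to 22.99), 17.8 (17.2 to 18.5) and 23.3 (22.6 to 24.04) percentage points. Matched on the DMSO SOX10 −log10 p, they were 5.37, 5.31 and 11.99. Among distal sites matched in the same way, triple sites differed from SOX10-alone sites by −0.71 points, which turns the direction, and from the other classes by 3.47 and 4.69 points. At the edge of the MITF rule SOX10 remained at 16.1% of 347 sites inside and 18.9% of 264 outside. At the TFAP2A edge it remained at 11.7% of 171 and 12.8% of 117. Triple sites were also wider (median 526 bp) than sites with SOX10 alone (237), with TFAP2A (311) or with MITF (305), and width was not matched. MITF remained at 14.7 (13.6 to 15.7) points more triple sites than SOX10 and MITF sites without TFAP2A, and 8.91 when matched on the MITF value. TFAP2A remained at 4.72 (3.97 to 5.47) points more triple sites than SOX10 and TFAP2A sites without MITF, but the difference was −3.96 points when matched on the TFAP2A value, which turns the direction.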

How the data were processed

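ChIP-seq of 92-1 cells was analysed from the authors' deposited peak lists. Per the submitters' processing notes, BWA, SAMtools, Picard and MACS2 were used on build hg38, with no versions given. The deposited lists give each peak's position, a score, a fold over background as a ratio, and −log10 p and −log10 q values. The score repeats the −log10 p (narrow lists) or −log10 q (broad lists) times 10 and was not used further.

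From these values, overlaps (at least 1 bp), Wilson and Newcombe intervals and matching within 10 deciles of −log10 p were computed in Python 3.11.15 (pandas 2.3.3, SciPy 1.17.1). Summit reads were solved from fold and p under a Poisson background for peaks with a −log10 p up to 290. In every narrow list 100% of these came out whole within 0.002 of a read (for SOX10 in FHT-1015 after the multiplier). That multiplier was itself chosen as the value giving the most whole reads. Depth was taken from the lowest background, with SOX10 in FHT-1015 as the reference, whose own depth came from the multiplier. Overlap, matching and read recovery without a multiplier were tested on simulated data. Genes and promoters are RefSeq on GRCh38.p14, whose promoter table holds no entry for some sites, and start-site counts leave these out; 16 triple sites on contigs without genes have no position. The named sites are the 5 with the best worst rank over the 3 DMSO lists and the 3 best for each outcome, and the named genes are the 10 with the most triple sites and those of the gene lists. Members, lists and outcomes were chosen with earlier results of these data known. Alternatives are given in the closing section. The input has no peak list here.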

Additional observations from a re-analysis of the deposited data

How the results depend on the processing

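All values below are shares of triple sites or differences in percentage points, with SOX10, MITF, TFAP2A, SMARCA4 and H3K27ac in this order, then SOX10 as the only factor absent and all 3 absent. With at least 50% of the site covered by an FHT-1015 peak the shares were 18.7%, 37.3%, 55.7%, 56.9%, 58.9%, 15.6% and 33.02%. With an FHT-1015 summit within 200 bp of the SOX10 summit they were 27.8%, 43.9%, 51.9%, 47.8%, 33.3%, 12.9% and 28.8%. With FHT-1015 peaks at q under 0.05 they were 26.2%, 50.03%, 65.4%, 64.7%, 62.9%, 19.3% and 24.1%. At sites whose 3 DMSO peaks had a −log10 p of at least 10 they were 42.5%, 70.4%, 76.8%, 80.5%, 76.1%, 21.96% and 13.5%. With the DMSO and FHT-1015 lists of each antibody cut to equal number they were 42.9%, 59.8%, 72.3%, 77.2%, 73.7%, 15.3% and 17.5%. List numbers still differed between antibodies. With broad lists SMARCA4 was 73.9% and H3K27ac 65.7%. Chosen after seeing the data, overlap with the factor's own DMSO peak gave 53.6% for MITF, 67.6% for TFAP2A, 18.4% and 21.4%, and keeping peaks whose summit reached 5 times mean library coverage left all 7 shares within their 95% intervals. The order SOX10 below MITF below TFAP2A was found in each of these settings.

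The distal minus boundary differences kept their sign in every setting. With boundaries within 2500 bp they were −33.6, −26.9, −33.6, −21.1 and −32.7, matched on the DMSO SOX10 strength −42.6, −31.5, −36.6, −25.8 and −37.9, and with 50% of the site covered −20.2, −17.5, −41.3, −16.3 and −38.4. With start sites in place of boundaries (added later) SMARCA4 was −25.2 and H3K27ac −37.6. The SOX10 difference of triple sites from SOX10-alone, SOX10 and MITF, and SOX10 and TFAP2A sites was 5.37, 11.99 and 5.31 matched on strength, 14.1, 15.5 and 14.6 at distal sites, and 10.99, 12.7 and 10.1 with 50% of the site covered. At distal sites matched on strength (added later) it was −0.71, 4.69 and 3.47, the first reversed. The number of triple sites was 35569 with 1 base common to all 3 peaks and 27144 with summits within 200 bp.

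No paired analysis was possible because each group has 1 library and the labels give no replicate numbers, and no replicate was left out for the same reason. A site without a peak had too few reads for a call at the depth of that library.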
